A study of Saccharomyces cerevisiae with 13 samples.

Results

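The mitochondrial ribosome of Saccharomyces cerevisiae was followed through the RNA of its protein genes in furfural-fed chemostats. The 66 genes described are those whose symbol starts with MRPL or MRPS, or is MRP or RSM followed by a digit, out of 5449 genes measured. Of these, 37 encode proteins of the large subunit and 27 proteins of the small subunit. The other two, MRP8 and RSM22, carry the prefix but are not structural ribosomal proteins: RSM22 is a methyltransferase-like protein found with the small subunit, and MRP8 is a protein of uncertain function.

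Furfural is an inhibitory aldehyde formed when plant biomass is broken down to sugars. FT30-3, in full TMB3400-FT30-3, is a strain obtained from TMB3400 by evolutionary adaptation to high furfural, and TMB3400 is its less resistant parent. RNA was measured on 13 Affymetrix arrays: FT30-3 at 15 mM furfural in the feed (n = 3), at 25 mM (n = 2) and at 36 mM (n = 3), and TMB3400 at 15 mM (n = 2) and at 25 mM (n = 3). All groups shared glucose limitation and a low oxygen supply, none was grown without furfural, and TMB3400 was washed out at 36 mM, so the effect of that dose can be read in FT30-3 alone. Replicates are biological according to the design text, all FT30-3 samples come from 1 adapted strain, and the number of arrays limits the precision.

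The mitochondrial ribosome translates a handful of messages from mitochondrial DNA, mostly for core subunits of the respiratory complexes and the ATP synthase. Nearly all of its proteins are encoded in the nucleus, made on cytosolic ribosomes and imported, and only Var1, a small-subunit protein, is made from mitochondrial DNA. Many of its proteins have counterparts in bacterial ribosomes, and others are found only in mitochondrial ones. In yeast the messages of many of these genes are bound by Puf3, an RNA-binding protein of nuclear-encoded mitochondrial messages, and glucose is known to lower mitochondrial biogenesis genes, in part through the activator subunit Hap4.

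Each of the 66 genes was read by 1 probe set, and all 66 stood above background on all 13 arrays. The lowest deposited intensity of a member on any array was 894.3 (MRP4), and the members' median intensity lay between 3016 and 4547 on the 13 arrays. The array also carries probe sets for another yeast, Schizosaccharomyces pombe, whose RNA should be absent. The 46 of them whose names meet the same rule had medians of 7.17 to 11.1, and 0 of the 46 were above background on all arrays. Background was itself taken from the S. pombe probe sets, the 46 among them, so that last count is no independent check. The 66 genes lie on 14 chromosomes, 5 of them on chromosome XVI, and MRPS12 and RSM19 on chromosome XIV are the 1 pair of direct neighbours.

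Levels below are log2(intensity + 1) after each array's median over S. cerevisiae probe sets was set to a common value, and a change is a difference between group means on that scale with its standard error (SE). A gene is called when its p-value from limma, adjusted by the Benjamini-Hochberg method over all 5449 genes of that comparison, is under 0.05. One array stood furthest apart before any comparison. FT30-3 at 36 mM replicate 1 correlated with its replicates at an r of down to 0.965 across genes, against at least 0.985 in the other groups. Genes with a coding length of 600 bases or less were dim on it: the 880 such genes that are not members had a median of 10.51 on that array and 11.08 and 11.14 on the other two 36 mM arrays. The 4503 longer genes had medians of 10.57 on it and 10.51 and 10.50 on the others. Short genes that are not members were also dimmer, by less, on replicate 1 at 25 mM. Their medians were 10.83 against 11.13 in FT30-3, and 10.84 against 11.06 and 11.02 in TMB3400. Short members were at 12.02 against 12.42 in FT30-3 at 25 mM, and at 12.17 against 12.16 and 12.31 in TMB3400. Comparisons with 25 mM include these arrays. Since 28 of the 66 members are this short, the main counts and medians that rest on 36 mM replicate 1 are also given without it. Other values at 36 mM include it.

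RNA of the mitochondrial ribosomal proteins was lower at the highest furfural dose. Comparing FT30-3 at 36 mM with FT30-3 at 15 mM, 42 of the 66 members fell and 0 rose, where 11.2% of all genes fell. The members' median change was -0.47, a level 0.721 times that at 15 mM, against a median of -0.03 over all genes. All 66 changes were below 0, from -0.99 for MRP21 to -0.03 for MRPL50, as were the changes of 53.6% of all genes. Of the members, 61 had an unadjusted p under 0.05. Without 36 mM replicate 1 an unadjusted p under 0.05 was found for 52 members and for 2086 of all 5449 genes. In a bulk extract, less RNA in every cell and fewer cells with that RNA cannot be told apart.

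The member medians of the single arrays show the step. In FT30-3 they were 12.22, 12.04 and 12.18 at 15 mM, 11.89 and 12.07 at 25 mM and 11.44, 11.69 and 11.77 at 36 mM. In TMB3400 they were 12.12 and 12.19 at 15 mM and 11.94, 11.96 and 12.10 at 25 mM. All 3 arrays at 36 mM thus lay below each of the other 10, and the 15 and 25 mM arrays of FT30-3 overlapped. Gene by gene, 58 of the 66 had all 36 mM arrays below all 15 mM arrays, which held for 22.3% of all genes. It was 61 members and 34.2% of all genes without 36 mM replicate 1.

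**Figure D1:**
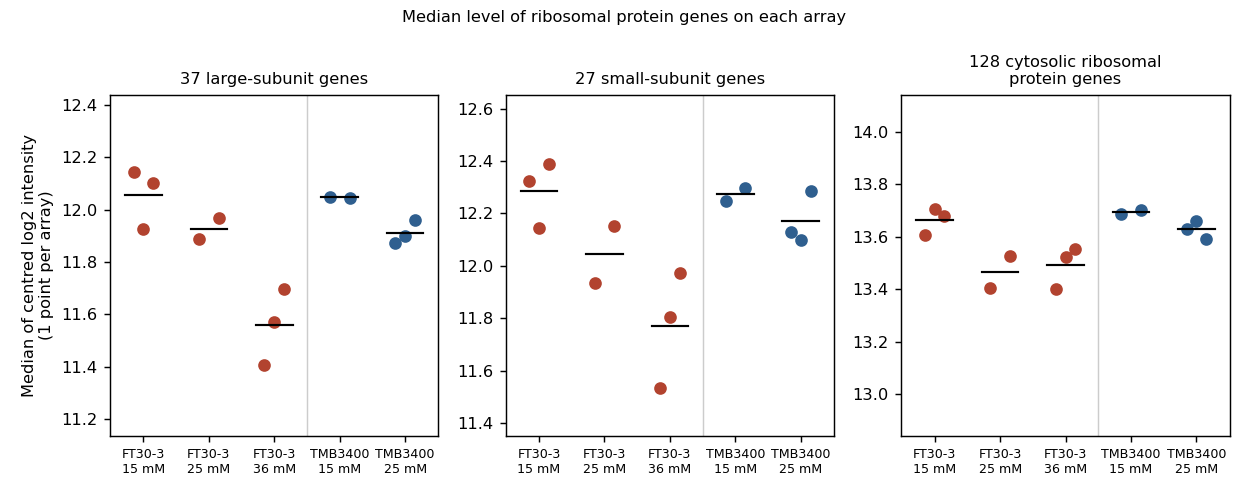
Median centred log2 intensity (vertical axis) of the 37 large-subunit, 27 small-subunit and 128 cytosolic ribosomal protein genes on each array, 1 point per array in replicate order, with the group mean as a bar; the horizontal axis gives strain and furfural dose, and each panel spans the same range. The group mean at 36 mM is the lowest in both mitochondrial panels, while the cytosolic genes of FT30-3 overlap between 36 and 25 mM.

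Genes of both subunits fell. In the large subunit 25 of 37 genes fell, with a median change of -0.45, and in the small subunit 17 of 27 fell, with a median of -0.54. Split by ancestry, 16 of 23 large-subunit genes with a bacterial counterpart fell (median -0.45) and 9 of 14 found only in mitochondrial ribosomes (median -0.51). In the small subunit 13 of 17 with a bacterial counterpart fell (median -0.57) and 4 of 10 without one (median -0.39). Without 36 mM replicate 1 the counts were 23 of 37 in the large subunit (median -0.42) and 18 of 27 in the small subunit (median -0.45), and in the order given above 14, 9, 11 and 7 in the 4 ancestry classes. These splits are counts and were not tested against each other.

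The small-subunit genes RSM25, RSM7 and MRPS12 had the smallest adjusted p-values of the members. RSM25, which has no bacterial counterpart, was at 11.32, 11.07 and 11.22 at 15 mM, 11.01 and 11.16 at 25 mM and 10.52, 10.59 and 10.55 at 36 mM in FT30-3. The 36 mM arrays lay together and below all others, and the change was -0.65 ± 0.08 (SE; limma adjusted p = 0.000470). RSM7, the counterpart of the bacterial S7 protein that organises the head of the small subunit, was at 12.32, 12.13 and 12.16 at 15 mM, 12.04 on both arrays at 25 mM and 11.59, 11.53 and 11.66 at 36 mM. Its arrays at the 3 doses did not overlap, and its change from 36 against 15 mM was -0.61 ± 0.08 (limma adjusted p = 0.000558).

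MRPS12 and RSM19, the neighbours on chromosome XIV, are counterparts of bacterial S12, a decoding-centre protein, and S19. MRPS12 was at 12.75, 12.69 and 12.76 at 15 mM, 12.52 and 12.50 at 25 mM and 12.04, 12.07 and 12.28 at 36 mM, in 3 separate ranges. It fell by 0.60 ± 0.08 on the log2 scale (limma adjusted p = 0.000665). RSM19 was at 11.71, 11.44 and 11.67 at 15 mM, 11.43 and 11.40 at 25 mM and 10.75, 10.82 and 11.12 at 36 mM. Its 36 mM arrays lay below all others, and it fell by 0.71 ± 0.12 (limma adjusted p = 0.00191). MRPS28, the counterpart of bacterial S15, changed by -0.57 ± 0.10 and MRPS5, the counterpart of S5, by -0.49 ± 0.09.

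In the large subunit the counterparts of bacterial L1, L3 and L15 fell with small errors. MRPL1 was at 11.89, 11.87 and 11.89 at 15 mM, 11.89 and 11.62 at 25 mM and 11.43, 11.15 and 11.24 at 36 mM. The 15 and 25 mM arrays overlapped and the 36 mM arrays lay below both, with a change of -0.61 ± 0.11 (limma adjusted p = 0.00255). MRPL9, the L3 counterpart, changed by -0.45 ± 0.08 and MRPL10, the L15 counterpart, by -0.49 ± 0.08. Of the genes found only in mitochondrial ribosomes, MRPL17 changed by -0.63 ± 0.11 (limma adjusted p = 0.00213) and MRPL31 by -0.55 ± 0.10.

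**Figure D2:**
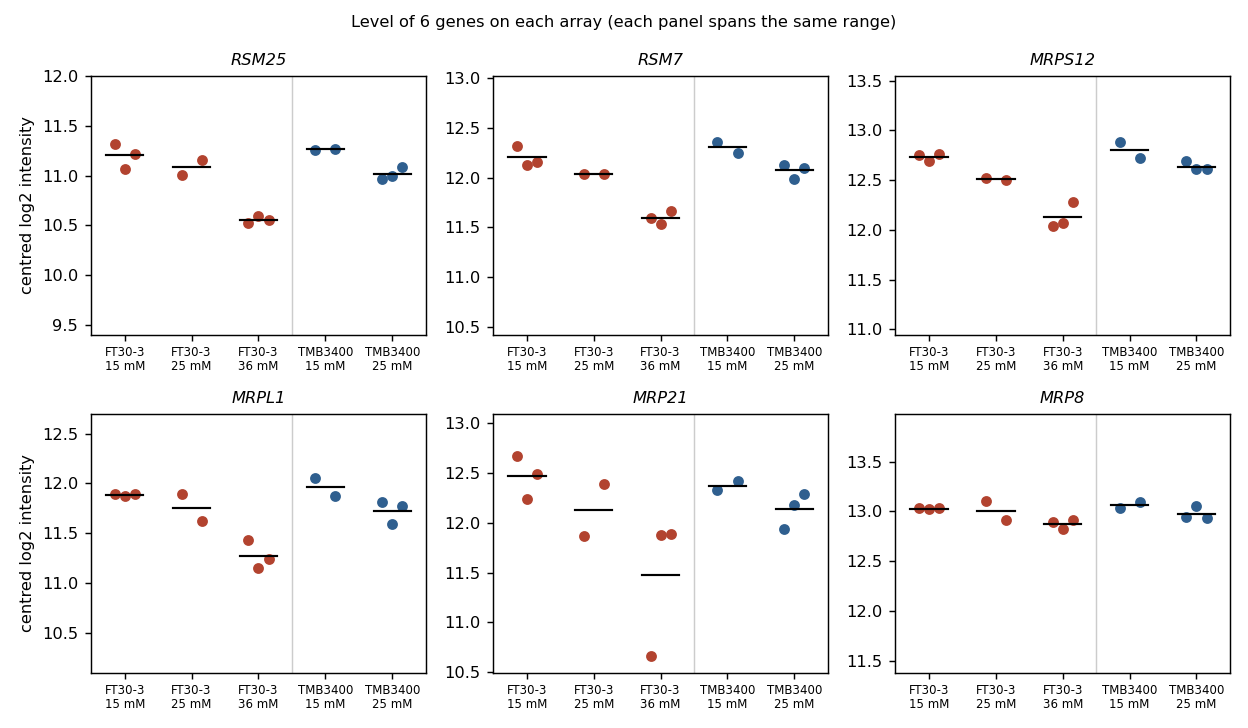
Centred log2 intensity (vertical axis) of 6 genes on each of the 13 arrays by strain and dose (horizontal axis), points being arrays in replicate order and bars group means; every panel spans the same range. RSM25, RSM7, MRPS12 and MRPL1 lie lowest on all 3 arrays at 36 mM, MRP21 has 1 array at 10.66 far below the other two, and MRP8 changed by -0.15 and was not called.

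The 3 largest changes came with wide errors and rested in part on the array that stood apart. MRP21, the counterpart of bacterial S21, was at 12.67, 12.24 and 12.49 at 15 mM, 11.87 and 12.39 at 25 mM and 10.66, 11.88 and 11.89 at 36 mM. Replicate 1 lay 1.23 below the mean of the other two, and the change was -0.99 ± 0.29 (limma adjusted p = 0.0306). MRPL32, the counterpart of bacterial L32 and a known substrate of the mitochondrial m-AAA protease, was at 13.33, 13 and 13.21 at 15 mM, 12.78 and 13.01 at 25 mM and 11.46, 12.63 and 12.68 at 36 mM (change -0.92 ± 0.27, limma adjusted p = 0.0332). MRPL49, the counterpart of L21, was at 11.55, 12.45 and 12.49 at 36 mM and at 13.12, 12.76 and 13.01 at 15 mM (change -0.80 ± 0.22, limma adjusted p = 0.0262). In these 3 genes every 36 mM array lay below every 15 mM array, replicate 1 by the widest margin. Without 36 mM replicate 1 the changes were -0.58 for MRP21, -0.52 for MRPL32 and -0.49 for MRPL49, each still called by limma (adjusted p = 0.0333, 0.0284 and 0.0325). All 3 calls were lost without FT30-3 15 mM replicate 1 or replicate 3, and that of MRPL32 also without replicate 2, with adjusted p of up to 0.104 for MRP21, 0.105 for MRPL32 and 0.0935 for MRPL49 over the refits.

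The 24 members that were not called changed less and had wider errors. Their median change was -0.39 with a median SE of 0.15, against -0.54 and 0.11 for the 42 called. MRPL50, the L9 counterpart, had the change nearest to 0: it was at 11.07, 11.57 and 11.65 at 36 mM and at 11.53, 11.23 and 11.61 at 15 mM, with overlap (-0.03 ± 0.17, limma adjusted p = 0.921). MRP8 was at 12.89, 12.82 and 12.91 at 36 mM and at 13.03, 13.02 and 13.03 at 15 mM (-0.15 ± 0.08, limma adjusted p = 0.165). RSM22 was at 10.30, 10.32 and 10.49 at 36 mM and at 10.71, 10.53 and 10.60 at 15 mM (-0.24 ± 0.09, limma adjusted p = 0.0781). Neither of the members that are not structural ribosomal proteins was therefore among the 42. Across all 66, 15 were lower by more than 1.5 times at 36 mM, as were 6.29% of all genes, and 0 were lower by 2 times or more. Leaving out 36 mM replicate 1, 8 members and 5.07% of all genes were lower by more than 1.5 times.

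**Figure D3:**
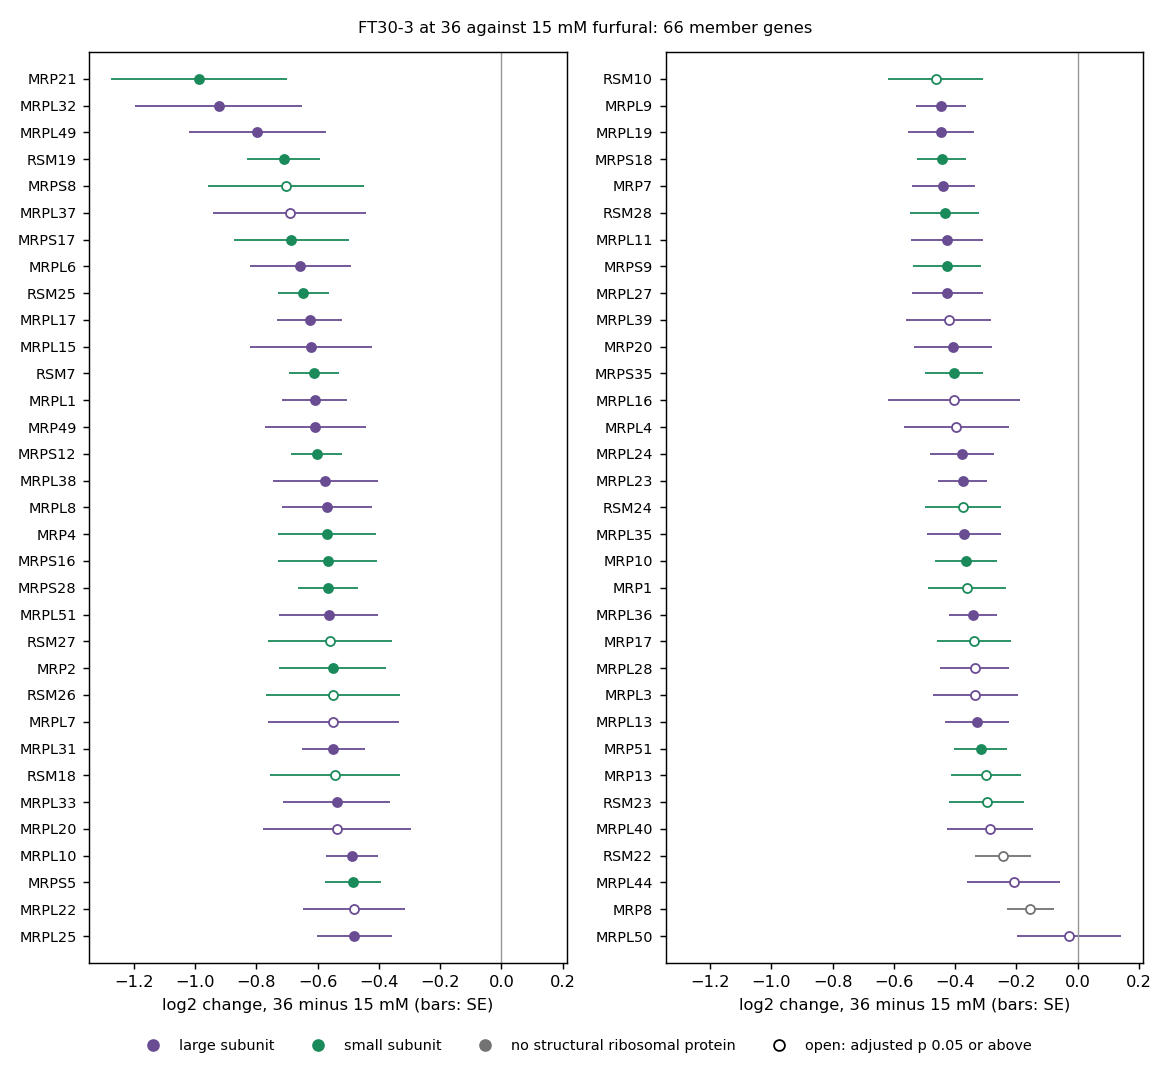
Change in log2 level of the 66 members in FT30-3 at 36 mM minus 15 mM (horizontal axis), 1 row per gene from the lowest, with the standard error as a bar; purple is the large subunit, green the small subunit and grey MRP8 and RSM22. All 66 points lie below 0, and the filled points are the 42 genes with a limma adjusted p under 0.05.

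Without FT30-3 at 36 mM replicate 1, 41 members fell, 34 of them among the 42, and the median change was -0.41, where 12.5% of all genes fell. In that refit 65 members were below 0, and MRPL50 was at 0.15. Without FT30-3 at 15 mM replicate 1 the count was 18, and it was also 18 without replicate 3 of that group. The share of all genes in these refits is not given here, so the lower count was not shown to be particular to the members. On the values as deposited, without centring, 12 members fell (4.72% of all genes), the median change was -0.27 against 0.17 over all genes, and 64 of 66 were below 0. On that scale 1494 genes rose and 257 fell, against 600 and 611 on the centred one, and 24 members had all 36 mM arrays below all 15 mM arrays (8.13% of all genes). The members' median thus lay below that of all genes on both scales, while the number called depended on the scale. The 12 members called in each of the 23 refits tried were MRPL1, MRPL9, MRPL10, MRPL17, MRPL31, MRPS5, MRPS12, MRPS18, MRPS28, RSM7, RSM19 and RSM25, with RSM25 at a highest adjusted p of 0.00968 and MRPL9 at 0.0493.

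Coding length moved with the change. The 28 short members had a median change of -0.55, with 18 called, and the 880 other short genes -0.19. The 38 longer members had a median of -0.44, with 24 called, and the 4503 other longer genes 0.00. Without 36 mM replicate 1 the short members had a median of -0.37, with 13 called, and the longer ones -0.46, with 28 called, while other short and longer genes had medians of -0.07 and -0.02. In both length classes the members' median therefore lay below that of other genes, with and without that array. The 669 other genes with mean levels between 11.53 and 12.33, the inner quartiles of the members, had a median change of -0.08, with 72 higher and 83 lower. Without 36 mM replicate 1 their median was -0.05, with 61 higher and 90 lower. The part of length and brightness in the change was not tested.

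**Figure D4:**
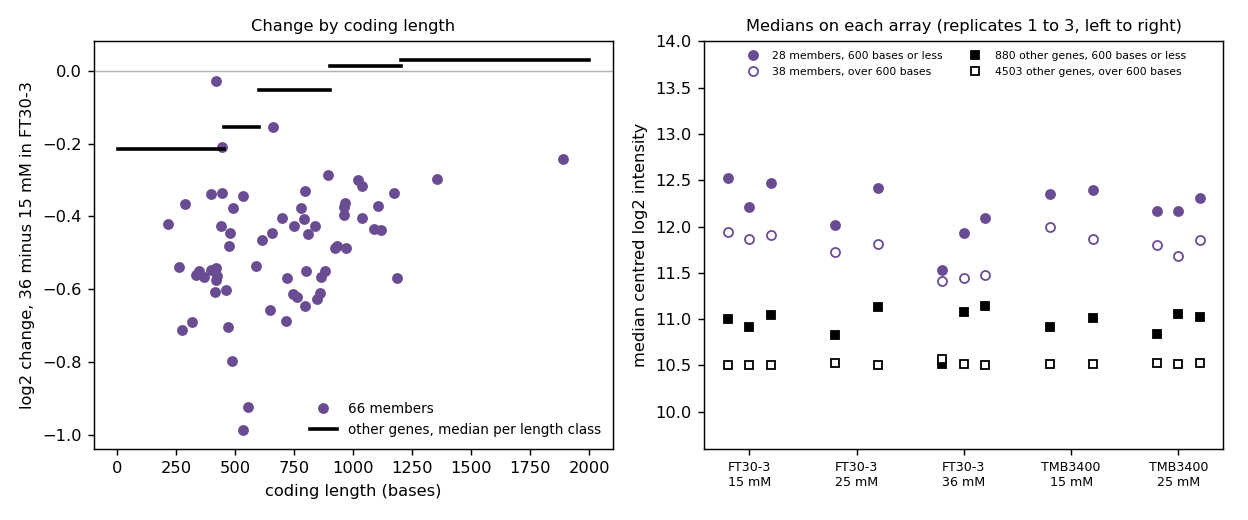
Left, change in log2 level at 36 minus 15 mM in FT30-3 (vertical axis) against coding length in bases (horizontal axis) for the 66 members (points) and, as bars, the median of other genes per length class. Right, median centred log2 intensity of short (filled) and longer (open) members (circles) and other genes (squares) on each array by strain and dose; the 880 other short genes drop to 10.51 on FT30-3 at 36 mM replicate 1.

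Most of the fall lay between 25 and 36 mM. Comparing FT30-3 at 36 mM with FT30-3 at 25 mM, 11 of the 66 members fell and 0 rose (3.73% of all genes fell). All 66 changes were below 0, as were those of 48.5% of all genes, and the median was -0.35 against 0.01 over all genes. All 11 are among the 42: RSM25, RSM7, MRPL1, MRPL10, MRPS12, MRPS5, MRPS28, RSM19, MRPL17, MRPL31 and MRPL9. RSM25 changed by -0.53 (limma adjusted p = 0.00775) and RSM7 by -0.45 (limma adjusted p = 0.0163). For 64 of the 66 genes the change between 25 and 36 mM was larger in size than that between 15 and 25 mM. At 36 against 25 mM 31 members had an unadjusted p under 0.05. Without 36 mM replicate 1 an unadjusted p under 0.05 was found for 35 members and for 1349 of all 5449 genes.

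The count depended on single arrays. It was 1 without either FT30-3 25 mM array, 1 without 36 mM replicate 2 and 4 without 36 mM replicate 3. Without 36 mM replicate 1 it was 16, where the median was -0.26 and 4.11% of all genes fell. It was 5, 4 and 2 without FT30-3 15 mM replicates 1, 2 and 3, 3 without either TMB3400 15 mM array and 3 without TMB3400 25 mM replicate 3. For the refits without a share of all genes here, a lower count was not shown to be particular to the members. RSM25 was called in 21 of 23 refits and RSM7 in 19, both losing the call without FT30-3 25 mM replicate 2, and RSM7 also without replicate 1 of that group or 36 mM replicate 2 (adjusted p of up to 0.140 and 0.189 over the refits). The count was 3 on the values as deposited (2.57% of all genes fell), where the median was -0.31 and all 66 changes were below 0.

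Between 15 and 25 mM no member was called in either strain. In FT30-3 limma called 0 of 66 (2.15% of all genes), 1 had an unadjusted p under 0.05, and the median was -0.12, or 0.04 on the values as deposited, so that its sign depends on the centring. In TMB3400 limma called 0 of 66 (1.6% of all genes), 3 had an unadjusted p under 0.05, and the median was -0.15 on the centred scale and -0.01 as deposited. On the centred scale 62 members in FT30-3 and 60 in TMB3400 were below 0, against 26 and 36 on the values as deposited. Of all genes, 56.5% in FT30-3 and 52.1% in TMB3400 were below 0 when centred, and 21.9% and 20% as deposited. The medians of all genes were -0.03 and -0.01 when centred, and 0.13 in both strains as deposited. The members' median thus lay below that of all genes on both scales in both strains. MRPS12 had the smallest p in FT30-3, at 12.52 and 12.50 at 25 mM and 12.75, 12.69 and 12.76 at 15 mM (-0.22 ± 0.09, limma adjusted p = 0.380). RSM25 had the smallest in TMB3400, at 10.96, 11.00 and 11.09 at 25 mM and 11.26 and 11.27 at 15 mM (-0.25 ± 0.09, limma adjusted p = 0.382). In both genes the 2 doses did not overlap.

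The dose step from 15 to 25 mM was not shown to differ between the strains for any member. The strain by dose interaction called 0 of 66 with limma (0.679% of all genes), 0 had an unadjusted p under 0.05, and the smallest adjusted p was 0.9997. Over the 3 doses in FT30-3, 62 members had means that fell at each step, as did 28.8% of all genes. On the values as deposited 26 members did, against 8.97% of all genes.

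The strains differed in 1 member when both doses were averaged. Comparing FT30-3 with TMB3400, limma called 0 of 66 at 15 mM (2.17% of all genes, 4 members with an unadjusted p under 0.05) and 0 of 66 at 25 mM (6.7% of all genes, 3 members with an unadjusted p under 0.05). The median differences were -0.04 and 0.01. Averaged over both doses, 1 member was higher, MRP51, and 0 were lower (6.81% of all genes were higher). MRP51, a small-subunit protein that also acts in translating messages of cytochrome oxidase, was at 12.73, 12.66 and 12.66 at 15 mM and 12.60 and 12.46 at 25 mM in FT30-3, against 12.36 and 12.42 at 15 mM and 12.30, 12.13 and 12.30 at 25 mM in TMB3400. Every FT30-3 array lay above every TMB3400 array (0.29 ± 0.07, limma adjusted p = 0.0186). The call was lost without either TMB3400 15 mM array or without FT30-3 25 mM replicate 1, with an adjusted p of up to 0.0818. The count rested on single arrays: it was 0 without either TMB3400 15 mM array, and without FT30-3 25 mM replicate 1 the 1 gene called was MRPS16. Arrays at 36 mM belong to neither group here but share the estimate of the spread. Without FT30-3 36 mM replicate 1 limma called 4 members higher and 4 lower, as it did 536 and 513 of all genes, and without replicate 3 it called 2 higher.

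MRP51 lies on chromosome XVI, and the other four members there were also higher in FT30-3 at both doses. MRPS16, the counterpart of bacterial S16, was at 13.09, 12.87 and 13.05 in FT30-3 and 12.46 and 12.57 in TMB3400 at 15 mM, and at 12.57 and 13 in FT30-3 and 12.23, 12.46 and 12.53 in TMB3400 at 25 mM. Its arrays did not overlap at either dose, and its averaged difference of 0.43 ± 0.13 missed the threshold (limma adjusted p = 0.0516). The averaged differences of MRP2, MRPL40 and MRPL51 were 0.35, 0.33 and 0.25, with limma adjusted p of 0.140, 0.0887 and 0.250. The 5 genes had a median averaged difference of 0.33, against -0.01 for the 61 members on other chromosomes, of which 16 were above 0 and 21 below 0 at both doses. All 424 genes measured on chromosome XVI had a median of 0.43 and the 5025 genes elsewhere -0.04.

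**Figure D5:**
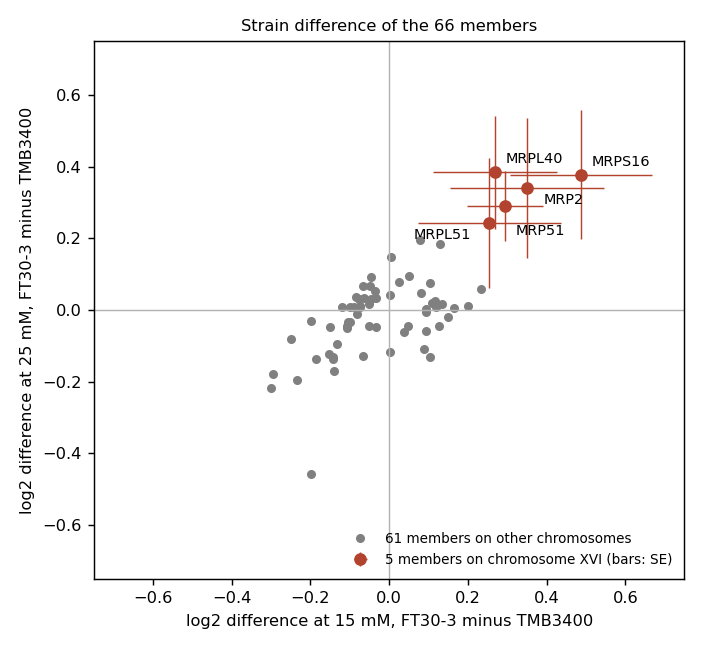
Difference in log2 level, FT30-3 minus TMB3400, at 15 mM (horizontal axis) and at 25 mM (vertical axis) for the 66 members; red points with standard errors are the 5 members on chromosome XVI and grey points the 61 on other chromosomes. The 5 red genes lie above 0 at both doses, between 0.24 and 0.49.

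On other chromosomes the differences nearest to a call were lower in FT30-3. MRPL13, a large-subunit protein, was at 11.49, 11.52 and 11.55 in FT30-3 and 11.89 and 11.73 in TMB3400 at 15 mM, and at 11.57 and 11.46 in FT30-3 and 11.79, 11.54 and 11.75 in TMB3400 at 25 mM. The strains overlapped at 25 mM (averaged difference -0.24 ± 0.08, limma adjusted p = 0.0945). MRP4, the counterpart of bacterial S2, was at 10.23 and 10.02 in FT30-3 and 10.77, 10.34 and 10.63 in TMB3400 at 25 mM, without overlap (-0.46 ± 0.18, limma adjusted p = 0.186).

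The same comparison of FT30-3 at 36 mM with FT30-3 at 15 mM was read in the genes that work with the ribosome, beside the 11.2% of all genes that fell. Of 13 measured mitochondrial ribosomal proteins under other names, 9 fell and 0 rose, with a median of -0.44. IMG2, a large-subunit protein, was at 11.31, 11.40 and 11.56 at 36 mM and 12.11, 11.95 and 12.13 at 15 mM (-0.64 ± 0.10, limma adjusted p = 0.00117). RTC6, the counterpart of bacterial L36, changed by -0.57 ± 0.08 and IMG1, a large-subunit protein, by -0.43 ± 0.08. These genes lie outside the naming rule that chose the 66.

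Of 11 mitochondrial translation factors 6 fell, with a median of -0.35. MRF1, the release factor that ends translation at stop codons, was at 10.52, 10.37 and 10.50 at 36 mM and 11.29, 11.07 and 11.11 at 15 mM (-0.69 ± 0.11, limma adjusted p = 0.00111). TUF1, the elongation factor that brings aminoacyl-tRNA to the ribosome, was at 12.97, 12.94 and 12.97 at 36 mM and 13.37, 13.35 and 13.39 at 15 mM (-0.41 ± 0.07, limma adjusted p = 0.00301). In both the doses did not overlap. GUF1, a mitochondrial GTPase that promotes translation, changed by -0.44 ± 0.09. TUF1 and GUF1 were not called on the values as deposited, with adjusted p of 0.0555 and 0.0725.

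Of 16 genes that charge mitochondrial tRNAs 6 fell, with a median of -0.33. MSM1, the methionyl-tRNA synthetase, was at 10.12, 10.19 and 10.36 at 36 mM and 11.26, 10.79 and 11.09 at 15 mM (-0.82 ± 0.13, limma adjusted p = 0.00130). NAM2, the leucyl-tRNA synthetase that also helps splice mitochondrial introns, changed by -0.62 ± 0.09 and MSF1, the phenylalanyl-tRNA synthetase, by -0.43 ± 0.07. Of 9 genes for ribosome assembly and rRNA modification 4 fell, with a median of -0.24, led by MAM33 (-0.63 ± 0.10), an acidic matrix protein. Of 8 genes of mitochondrial transcription and RNA turnover 1 fell, RPO41, the mitochondrial RNA polymerase (-0.45 ± 0.08, limma adjusted p = 0.00290), and the median was -0.21. That share, 12.5%, is near the 11.2% of all genes. In none of these groups did a gene rise.

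Of 19 translational activators and membrane tethers 8 fell and 0 rose, with a median of -0.36. PET111, the activator of the COX2 message, was at 9.92, 10.14 and 10.12 at 36 mM and 10.63, 10.73 and 10.69 at 15 mM (-0.63 ± 0.10, limma adjusted p = 0.00154). CBP6, which works with the cytochrome b message, changed by -0.60 ± 0.12. Without 36 mM replicate 1, where 12.5% of all genes fell, the numbers that fell were 10 of 13 ribosomal proteins under other names, 7 of 11 translation factors, 10 of 16 tRNA charging genes, 4 of 9 assembly genes, 3 of 8 genes of transcription and RNA turnover and 11 of 19 activators and tethers. None of these lists held a gene that rose in that refit.

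Among 12 regulators 4 fell and 1 rose, with and without 36 mM replicate 1. The 4 that fell were HAP4, MIG1 (-0.68 ± 0.18, limma adjusted p = 0.0197), FHL1 (-0.58 ± 0.15) and HAP5 (-0.29 ± 0.09). Without that array PUF3 was called lower and MIG1 was not (limma adjusted p = 0.0533). HAP4 was at 13.19, 13.28 and 13.14 at 15 mM, 12.77 and 12.90 at 25 mM and 12.74, 12.59 and 12.66 at 36 mM in FT30-3, with the 15 mM arrays above the others of that strain. It changed by -0.54 ± 0.08 at 36 against 15 mM (limma adjusted p = 0.000799), and in TMB3400 it was at 13.11, 13.02 and 13.03 at 25 mM and 13.16 and 13.15 at 15 mM. MIG2, a glucose repressor, was the gene that rose, at 8.68, 8.62 and 9.06 at 36 mM and 7.71, 7.02 and 7.67 at 15 mM (1.32 ± 0.34, limma adjusted p = 0.0190), a call lost without FT30-3 15 mM replicate 2 or 36 mM replicate 3, with an adjusted p of up to 0.0735. The RNA of PUF3 itself was at 9.78, 9.32 and 9.06 at 36 mM and 10.00, 9.85 and 9.45 at 15 mM, with overlap (-0.38 ± 0.18, limma adjusted p = 0.142). Without 36 mM replicate 1 the PUF3 arrays did not overlap, and the change was -0.58 ± 0.15 (limma adjusted p = 0.0215). The PUF3 call thus depended on that array.

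The cytosolic ribosomal protein genes were read in the same comparisons. Of 128 measured, 19 fell and 0 rose at 36 against 15 mM, with a median of -0.17, a share of 14.8% where 11.2% of all genes fell. Without 36 mM replicate 1, 12 fell (9.38%, against 12.5% of all genes) and the median was -0.15. At 36 against 25 mM, where the mitochondrial members had a median of -0.35, limma called 0 of the 128, 0 had an unadjusted p under 0.05, and their median was 0.02, or 0.04 without 36 mM replicate 1. At 25 against 15 mM in FT30-3 their median was -0.20 against -0.03 over all genes, with 0 called (2.15% of all genes). At an unadjusted p under 0.05 there were 58, a count not set against a share of all genes. The difference between the 2 sets of genes was not tested.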

How the data were processed

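The deposited table gives, for 10928 probe sets on 13 one-colour arrays, intensity values of the authors on a linear scale. The submitters' processing notes list R 2.7.2. The sources used here do not state the summary method, background correction, normalization or genome build. Probe sets were named through the platform annotation: 5498 had 1 S. cerevisiae gene, giving 5449 genes, and 47 genes with several probe sets were represented by the brightest. Background was each array's 95th percentile over 1746 S. pombe probe sets, 31.2 to 39.0.

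Tests used log2(intensity + 1), a pseudocount of 1, with every array centred on its median over S. cerevisiae probe sets, because array medians of 1412 to 1663 differed between doses. With limma 3.58.1 (lmFit, eBayes; R 4.3.3), a mean for each of the 5 groups was estimated from the 13 arrays together. Benjamini-Hochberg adjustment ran over 5449 genes per comparison, with a threshold of 0.05. The procedure was tested on simulated data. Figures used matplotlib 3.10.9.

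The members and lists were chosen with earlier results of these data known. The genes named were, per comparison, the 8 highest and 8 lowest called members, members on chromosome XVI in strain comparisons, MRP8, the 3 smallest p-values where none was called, up to 3 genes with the smallest p of each other list, and HAP4 and PUF3; not all are named, and others are named where they carry a count. Coding lengths and names come from RefSeq, assembly R64. Alternatives were the values as deposited, quantile normalization, centring off chromosome XVI, a pseudocount of 32, a filter on dim genes, an intensity trend, only the groups compared, array weights, a replicate block, the mean of a gene's probe sets, another membership, a threshold of 0.01 and leaving out each array. A planned motif search in promoters was not run.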

Additional observations from a re-analysis of the deposited data

Results flagged for a closer look

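The strain by dose interaction of the limma fit, for 15 and 25 mM furfural, was called for 0 of the 66 ribosomal members. It was called for 2 of the genes that work with the mitochondrial ribosome or regulate ribosomal genes. Those 2 come from the lists of 13, 11, 16, 9, 8, 19 and 12 measured genes described above. Of all genes, 0.679% were called. SOV1, the translational activator of the VAR1 message and so of the ribosomal protein made inside mitochondria, was at 8.06 and 8.12 in FT30-3 at 25 mM, against 9.84, 9.70 and 9.75 in FT30-3 at 15 mM and 9.38, 9.43 and 9.39 at 36 mM. In TMB3400 it was at 9.91, 9.89 and 10.02 at 25 mM and 9.84 and 9.90 at 15 mM. The interaction was -1.745 ± 0.116 on the log2 scale (limma adjusted p = 1.83e-05), and it was called in all 23 refits. VAR1 itself was not analysed here.

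FHL1, a transcription factor of cytosolic ribosomal protein genes that lies on chromosome XVI, was at 10.57 and 10.14 in FT30-3 at 25 mM, against 9.16, 9.21 and 9.18 in FT30-3 at 15 mM, and at 36 mM it was at 8.86, 8.63 and 8.32. In TMB3400 it was at 8.91, 8.68 and 8.72 at 25 mM and 9.04 and 8.81 at 15 mM. The interaction was 1.325 ± 0.233 (limma adjusted p = 0.0253). It was called in 15 of 23 refits and lost without any of the FT30-3 or TMB3400 15 mM arrays, FT30-3 25 mM replicate 1, or TMB3400 25 mM replicates 2 and 3, with an adjusted p of up to 0.161.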

How the results depend on the processing

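The members' median change at 36 against 15 mM in FT30-3 was below 0 in all 23 refits, though many of them could not move it. The intensity trend, the filter on dim genes, only the groups compared and the mean of a gene's probe sets leave the members' changes as they are. So does leaving out a TMB3400 or FT30-3 25 mM array. On the values as deposited 12 members were called (median -0.27, 4.72% of all genes lower), and 26 after quantile normalization (9.29%). The count was 17 with only the groups compared, 14 at an adjusted p under 0.01, 62 with array weights and 18 to 41 leaving out 1 array. For 36 against 25 mM the counts were 3 as deposited (2.57% of all genes lower) and 11 after quantile normalization (3.91%). They were 0 with only the groups compared, 1 at an adjusted p under 0.01 and 1 to 16 leaving out 1 array. For the averaged strain difference limma called 2 members as deposited (7.18% of all genes higher) and 2 after quantile normalization (6.86%). It also called 2 with centring off chromosome XVI, a pseudocount of 32, the filter on dim genes, an intensity trend or the other membership. The count was 5 with only the groups compared, 7 with array weights, 0 at an adjusted p under 0.01 and 0 to 8 leaving out 1 array. Where no share of all genes is given, these counts are not set against one. At 15 mM array weights gave 2 called strain differences, and at 25 mM leaving out 1 array gave 0 to 2. For 25 against 15 mM the members' medians as deposited were -0.012 in TMB3400 and 0.04 in FT30-3, against 0.13 over all genes in both. The other membership added 1 call in TMB3400, MHR1. Replicate numbers were not treated as pairs: deviations of same-numbered arrays correlated between -0.4 and 0.571. They were positive for 25 against 15 mM in TMB3400, for the strains at 25 mM and for 36 against 25 mM in FT30-3. They were negative for the strains at 15 mM and for 25 against 15 mM in FT30-3, and mixed for 36 against 15 mM. Whether same-numbered arrays shared a run was not tested. With the number as a replicate block the counts were 50 at 36 against 15 mM, 13 at 36 against 25 mM and 3 for the averaged strain difference. The cause of these shifts was not tested, except that fits of only the groups compared have fewer arrays. With single summarised values, background correction could not be varied. All 66 members stood above background on all arrays.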

Other observations

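The strain comparison also reached genes around the ribosome. Averaged over 15 and 25 mM, 4 of 16 genes that charge mitochondrial tRNAs were higher in FT30-3 and 0 lower: MSF1, ISM1, MSD1 and MSY1, for phenylalanine, isoleucine, aspartate and tyrosine. Of all genes, 6.81% were higher. All 4 lie on chromosome XVI, as do AEP3, which stabilises a mitochondrial ATP synthase message, and SUV3, a mitochondrial RNA helicase, both also higher. The 424 genes measured on that chromosome had a median difference of 0.43. In the fit without FT30-3 36 mM replicate 1, limma called 308 of those 424 higher, and 4 of the 16. Whether the 4 differ from other genes of that chromosome was not tested. MSF1 was at 11.30, 11.21 and 11.30 in FT30-3 and 10.68 and 10.65 in TMB3400 at 15 mM, and at 11.15 and 11.18 in FT30-3 and 10.59, 10.56 and 10.62 in TMB3400 at 25 mM (0.59 ± 0.05, limma adjusted p = 8.22e-05). AEP3 was higher by 0.68 ± 0.06 and SUV3 by 0.55 ± 0.09. These genes were named after their values were seen.

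At 25 mM some translational activators were lower in FT30-3 than in TMB3400. PET111 was at 9.82 and 10.07 in FT30-3 and 10.40, 10.50 and 10.47 in TMB3400 (-0.51 ± 0.11, limma adjusted p = 0.0213). PET122, an activator of the COX3 message, was at 7.87 and 6.74 in FT30-3 and 8.23, 8.61 and 8.57 in TMB3400 (-1.16 ± 0.25, limma adjusted p = 0.0202), with FT30-3 arrays that differ by more than 1 on the log2 scale. Both calls were lost without TMB3400 25 mM replicate 2 or 3, that of PET111 also without FT30-3 25 mM replicate 1 and that of PET122 without replicate 2, with adjusted p of up to 0.200 and 0.125.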
